A study of Mus musculus with 3 samples.

Results

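Kinesins, cytoplasmic dyneins and the dynactin complex are the machinery that carries cargo along microtubules, and 55 of the 18121 protein-coding genes measured were taken as members here. The rule used leaves out other genes of this machinery, such as Kifap3 and the dynein light chains. Members were taken by symbol, as protein-coding genes whose mouse name begins with Kif or Klc and a digit, or with Dync or Dctn. They comprised 15 cargo transport kinesins, 11 mitotic kinesins, 11 other kinesins, 4 kinesin light chains, the kinesin-binding protein Kif1bp, 5 subunits of cytoplasmic dynein 1, 2 of dynein 2 and 6 of dynactin. Poly-A RNA came from wild-type cortical neurons of Swiss-Webster mice, dissociated on embryonic day 16 and grown on poly-D-lysine in neurobasal medium with B27. No treatment was given to these cells, although the labels' protocol text also describes the drug etoposide. There were 3 libraries of this 1 group, so the comparisons are between genes within the same libraries. Nothing in the labels shows that the libraries came from separate cultures or litters, and the spread between them may be technical.

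Kinesins mostly walk toward the plus ends of microtubules, which in an axon point away from the cell body, and carry vesicles, organelles and RNA outward. Cytoplasmic dynein 1 walks toward the minus ends and returns cargo to the cell body, and it needs dynactin and an adaptor to move far. Other kinesins are known for building and separating the spindle of dividing cells and are called mitotic here by that role. The class name does not say which cells made their RNA or that they have no other role.

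Levels are in TPM, a share of all reads scaled by transcript length that sums to 1000000 in each library, of the row of a gene's longest protein-coding transcript. Errors are standard deviations between libraries (SD, n = 3). Rows of 1 gene share reads, so a level is that of the gene seen through 1 transcript model. The depth was at least 26.7, 23.6 and 23.2 M reads in libraries 1, 2 and 3. For a transcript of 2 kb, a level of 1 TPM corresponded to 102.5, 86.5 and 91.4 reads.

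Most kinesin motors bind ATP through a phosphate-binding loop, the P-loop, whose codons can be read from the transcripts. Only its kinesin form was searched, in frame: G-x-T-x-x-G-K-T or G-x-T-x-x-G-K-S in amino acid letters, with x for any. This pattern was found in 35 of 37 kinesin motor genes and in 0 of 18 light chain, binding protein, dynein and dynactin genes. A P-loop of another form would not match, so the 0 does not show that dynein heavy chains lack a P-loop. The pattern was found in 0.645% of the 21866 protein-coding genes of the annotation. The 2 kinesins without it were Kif26a and Kif26b, both known as kinesins that do not hydrolyse ATP. The coding windows of 3 pairs of relatives are printed to show how alike the motors are whose levels are compared: Kif2a and Kif2c, and Kif3a and Kif3c, differ in level, while Kif5a and Kif5c are close. Each is 60 bases, 5′ to 3′ on the coding strand, from the GENCODE M21 transcripts, with the pattern in capitals.
Kif5a, chr10:127247622-127248083, minus strand, exons 3 to 4: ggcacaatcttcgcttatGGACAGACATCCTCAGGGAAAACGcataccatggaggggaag
Kif5c, chr2:49680185-49688658, plus strand, exons 3 to 4: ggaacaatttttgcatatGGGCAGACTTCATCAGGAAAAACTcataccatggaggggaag
Kif3a, chr11:53570809-53578902, plus strand, exons 2 to 3: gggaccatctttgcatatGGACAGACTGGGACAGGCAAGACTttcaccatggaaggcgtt
Kif3c, chr12:3366251-3366310, plus strand, exon 1: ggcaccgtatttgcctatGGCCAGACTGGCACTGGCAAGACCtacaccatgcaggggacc
Kif2a, chr13:106979021-106979521, minus strand, exons 10 to 11: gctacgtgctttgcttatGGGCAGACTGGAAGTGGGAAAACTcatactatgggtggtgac
Kif2c, chr4:117167098-117167338, minus strand, exons 11 to 12: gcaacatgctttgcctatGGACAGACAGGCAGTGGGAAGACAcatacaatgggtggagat
Coordinates are on mm10, and a window that spans 2 exons also spans the intron between them. Kif5a and Kif5c differed at 9 of 60 bases, Kif2a and Kif2c at 11, and Kif3a and Kif3c at 15. Kif5a and Kif3a, motors of different families, differed at 20. Over whole transcripts the genes were well separated: each of the 55 members had at least 95.3% of its 50-base words at no other annotated locus, and 43 had all of them, so reads of relatives could be told apart over most of their length.

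A gene was counted as detected at a mean of 1 TPM or more. By this measure 36 of 55 members (65.5%) were detected, a share near the 61.5% of all protein-coding genes. At limits of 0.5 and 5 TPM the members at or above it numbered 47 and 27, against 66.4% and 40.5% of all protein-coding genes. At 10 TPM or more stood 26 members (47.3%), against 26.4% of all protein-coding genes, and at 100 TPM or more 5 members (9.09%), against 1.57%. The median mean level was 4.50 TPM over the members and 2.84 TPM over all protein-coding genes. The classes differed widely in level. The class medians of log2(TPM + 1), with the SD of the library medians, ran from 5.66 ± 0.05 in dynactin, 5.57 ± 0.06 in cytoplasmic dynein 1 and 4.95 ± 0.13 in the cargo transport kinesins to 0.82 ± 0.11 in the mitotic and 0.43 ± 0.03 in the other kinesins. Over all protein-coding genes it was 1.94 ± 0.004. Each class median was taken over the mean TPM of the genes, so it can lie outside the library medians. For all protein-coding genes the library medians were 1.926, 1.933 and 1.934 in libraries 1, 2 and 3.

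**Figure D1:**
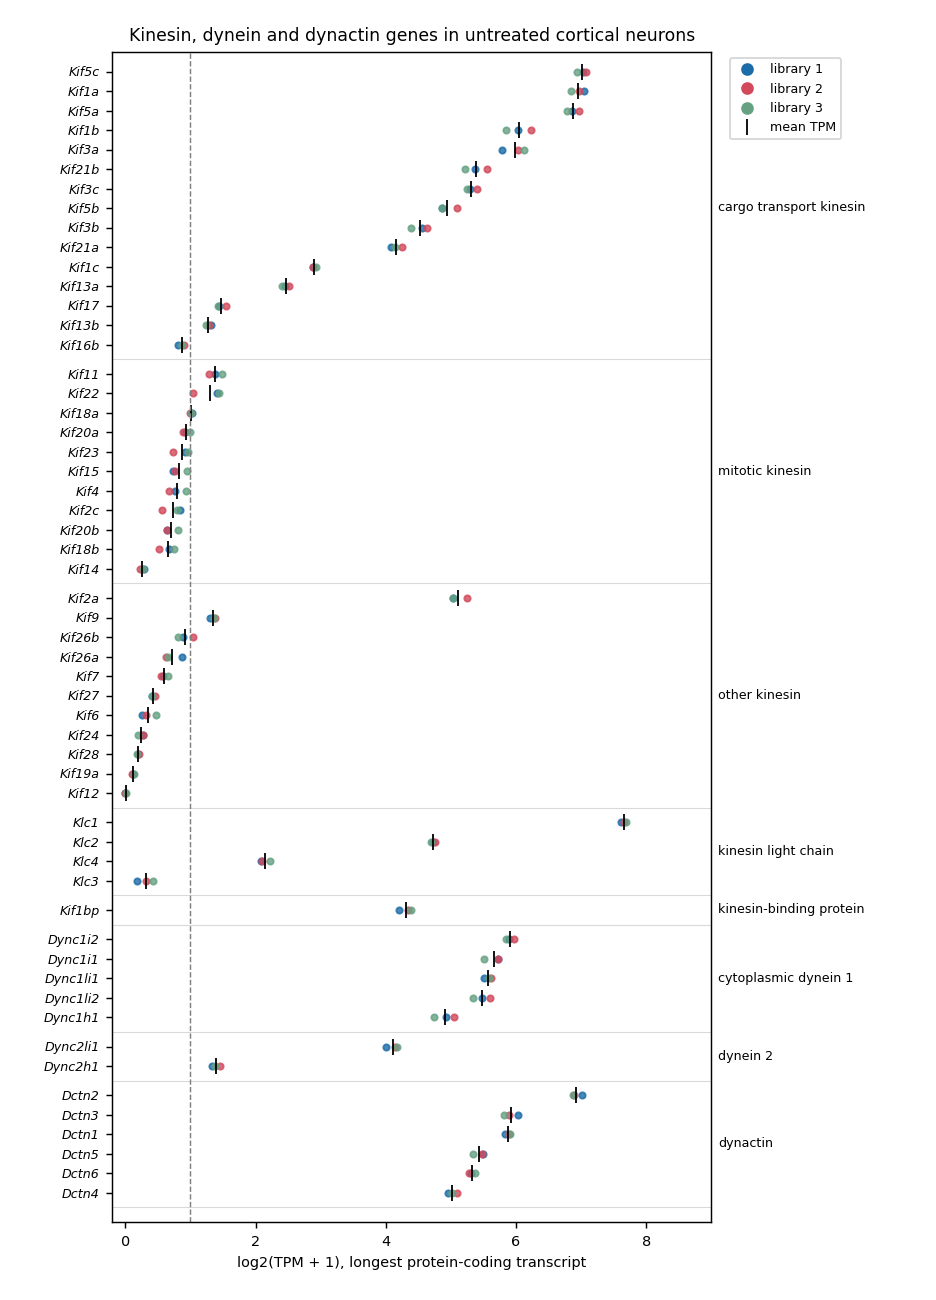
Level of each of the 55 genes as log2(TPM + 1) of the longest protein-coding transcript, grouped by class and ordered by mean within it; points are the 3 libraries, the black tick is the mean TPM on the same scale, and the dashed line marks 1 TPM. Dynein 1 and dynactin genes all lie at 29.1 TPM or more, while 8 of 11 mitotic and 9 of 11 other kinesins lie below 1 TPM.

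Kinesin-1 is a tetramer of 2 heavy chains, the motors Kif5a, Kif5b and Kif5c, and 2 light chains that bind cargo. Kif5c, a neuron-enriched heavy chain, had the highest mean of the kinesin motors, 128 ± 6.30 TPM, with 130, 133 and 121 TPM in libraries 1, 2 and 3, although Kif1a at 123 ± 8.41 TPM lay within that spread and exceeded Kif5c in library 1. Kif5a, also neuron-enriched and a gene of hereditary spastic paraplegia in humans, had 115, 123 and 110 TPM. Kif5b, the heavy chain found in most cell types, had 28.2, 33.1 and 28.1 TPM, and its libraries did not overlap those of either relative. Within libraries Kif5c exceeded Kif5b by 2.07 ± 0.09 on the log2(TPM + 1) scale, a mean ratio of 4.32, and Kif5a exceeded Kif5b by 1.93 ± 0.06, a ratio of 3.90. Kif5c and Kif5a were close: the ratio was 1.11 ± 0.03 and above 1 in 3 of 3 libraries, although their ranges over libraries overlapped. Kif5c made up 46.8% ± 0.798 of the summed heavy chain TPM, Kif5a 42.3% ± 0.253 and Kif5b 10.9% ± 0.545. The order of Kif5a and Kif5b depended on the rows used, because Kif5a has 1 row and Kif5b 6: with rows summed, Kif5a minus Kif5b was -0.55.

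Of the kinesin light chains, Klc1 was the highest of all 55 members, with 195, 201 and 205 TPM, above 99.5% of protein-coding genes. Klc2, the other widely expressed light chain, had 25.5, 26.1 and 25.0 TPM, and Klc4 had 3.25, 3.30 and 3.65 TPM. The ratio of Klc1 to Klc2 was 7.84 ± 0.301, and Klc1 took 87.3% ± 0.276 of the summed light chain TPM. Klc3, known for its role in sperm, had 0.133, 0.243 and 0.345 TPM, from 13, 20 and 30 reads, and 30.8% of its exonic bases are also covered by Ercc2 on the other strand.

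Kinesin-2 is a heterotrimer in which Kif3a pairs with Kif3b or Kif3c and the cargo-binding subunit Kifap3 joins the pair. Kif3a had 54.1, 64.6 and 69.0 TPM in libraries 1, 2 and 3. Kif3c, the partner best known from neurons, had 38.2, 41.3 and 36.9 TPM, and Kif3b, the partner in ciliary transport, had 22.4, 23.9 and 19.9 TPM, so the ranges of the 3 genes did not overlap. Kif3c exceeded Kif3b by 0.79 ± 0.06 (log2), a ratio of 1.76 ± 0.0811. Kif3c shares 44.4% of its exonic bases with genes on the other strand, among them 1110002L01Rik, and the strand setting of the authors' counting is not given in the sources used here. Kifap3, which the symbol rule leaves out, stood at 101 ± 7.50 TPM. Kif17, a kinesin-2 that works as a homodimer and is known for carrying receptor vesicles into dendrites, was low, with 1.70, 1.91 and 1.67 TPM.

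Kinesin-3 motors carry vesicles, and the family was the most uneven of the transport kinesins, from 123 TPM to 0.822 TPM. Kif1a, the motor of synaptic vesicle precursors and dense-core vesicles, had 131, 125 and 114 TPM. Kif1b, which carries mitochondria or synaptic vesicle precursors depending on its isoform, had 64.1, 74.0 and 56.6 TPM, below Kif1a in every library. Kif1a minus Kif1b was 0.92 ± 0.15 (log2), a ratio of 1.91 ± 0.199.

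The Kif1b row used, Kif1b-203, codes for the longer isoform. Kif1b-201, the shorter coding isoform with another tail, had 20.8, 25.2 and 22.7 TPM, and 32.1% of its exonic bases are shared with Kif1b-203. In each library its level stood below that of Kif1b-203 and of Kif1b-202, whose bases all lie within Kif1b-203 and which had 60.9, 68.0 and 56.4 TPM. Reads on the shared bases count in both rows, so the 22.9 ± 2.19 TPM of Kif1b-201 is no estimate of that isoform alone.

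The remaining kinesin-3 genes were far lower. Kif1c had 6.35, 6.41 and 6.62 TPM, and Kif1b exceeded it by 3.14 ± 0.21 (log2). Kif13a, a motor of endosomal and Golgi vesicles, had 4.48, 4.74 and 4.29 TPM, and Kif13b 1.48, 1.42 and 1.36 TPM, a ratio of 3.17 ± 0.146. Kif16b, a motor of early endosomes, averaged 0.822 ± 0.0606 TPM and was the 1 transport kinesin of 15 that was not detected at 1 TPM. Kif21a and Kif21b, kinesin-4 motors that also restrain microtubule growth, averaged 16.9 ± 1.07 and 40.9 ± 4.93 TPM. Kif21a minus Kif21b was -1.22 ± 0.12 (log2), with the same sign in 3 of 3 libraries.

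**Figure D2:**
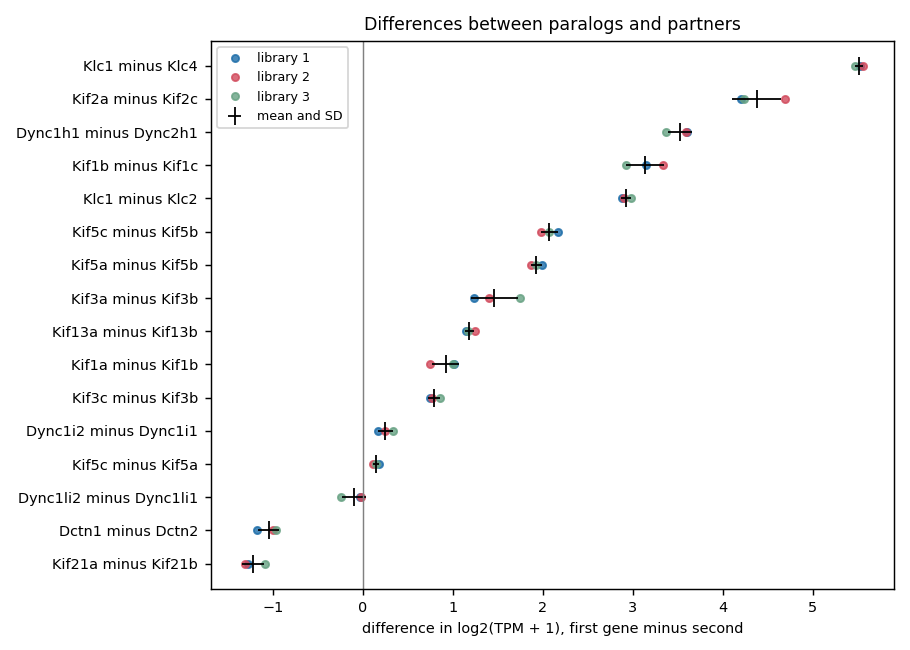
Difference in log2(TPM + 1) between the 2 genes of each of 16 pairs of relatives or partners, first gene minus second; points are the 3 libraries, and the black cross gives their mean and SD. All 16 pairs have the same sign in 3 of 3 libraries, and the differences run from -1.22 (Kif21a minus Kif21b) to 5.52 (Klc1 minus Klc4).

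All 16 pairs compared had the same sign in 3 of 3 libraries. By an exact two-sided sign-flip permutation test over libraries each had p = 0.25, also after Benjamini-Hochberg adjustment over the 16 pairs, and this is the smallest p that 3 libraries can give, so no pair could pass a threshold of 0.05. The differences are therefore given with their spread. In 15 of the pairs the mean difference was at least 3 times its SD. Dync1li2 minus Dync1li1, at -0.10 ± 0.13 (log2), was smaller than its SD.

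Mitotic kinesins were set against the transport kinesins, as the roles of the 2 classes differ. Of the transport kinesins 14 of 15 were detected and 10 stood at 10 TPM or more, while of the mitotic kinesins 3 of 11 were detected and 0 reached 10 TPM. Of all protein-coding genes 61.5% were detected and 26.4% reached 10 TPM. The mitotic count depended on the limit, with 10 genes at 0.5 TPM or more and 0 at 5 TPM or more, against 66.4% and 40.5% of all protein-coding genes. It was 10 when TPM was rescaled to nuclear protein-coding genes, which raises the level of every such gene. The share of all protein-coding genes detected at that scaling is not given, so this count has no background beside it. The median of log2(TPM + 1) was 4.87, 5.09 and 4.86 in the transport class in libraries 1, 2 and 3, and 0.84, 0.73 and 0.95 in the mitotic class. The difference was 4.03, 4.36 and 3.91, with a mean of 4.10 ± 0.23. The summed TPM was 658 ± 37.5 over the transport kinesins and 9.37 ± 1.36 over the mitotic kinesins. Of the transport kinesins 13 stood above every mitotic kinesin by their mean, and Kif13b and Kif16b were the exceptions. Kif2a, a relative of the mitotic kinesin Kif2c, was placed with the other kinesins and is not in the mitotic values. It averaged 33.6 ± 3.07 TPM, so the mitotic counts, sum and ranking depend on that placement.

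Kif11, the motor that pushes spindle poles apart, had the highest mean of the mitotic kinesins, with 1.59, 1.43 and 1.79 TPM. Kif22, which moves chromosome arms, had 1.65, 1.05 and 1.71 TPM, above Kif11 in library 1, with library 2 apart from the other two. Kif18a, which dampens chromosome movement at the spindle's centre, had 1.03, 0.996 and 1.01 TPM and completed the detected genes. Kif20a and Kif23, motors of cytokinesis, averaged 0.911 ± 0.0692 and 0.833 ± 0.152 TPM. Kif15, Kif4, Kif2c, Kif20b and Kif18b lay between 0.567 and 0.761 TPM. The lowest was Kif14, another gene of cytokinesis, at 0.194 ± 0.0273 TPM. These low values were not single reads: in the 6 mitotic kinesins for which reads could be recovered, each library held 59 to 393. On the other strand Cdc23 covers 26.4% of the exonic bases of Kif20a, and Pdzd11 covers 16.7% of those of Kif4.

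Markers of dividing cells, a list that includes the mitotic kinesin Cenpe, were also low. Of 12 such genes 7 (58.3%) were detected, against 61.5% of all protein-coding genes and 27.3% of the mitotic kinesins. Of the 12 genes 0 reached 10 TPM, against 26.4% of all protein-coding genes. Their median log2(TPM + 1) was 1.04 ± 0.14, against 0.82 in the mitotic kinesins and 1.94 over all protein-coding genes. Top2a, the topoisomerase of dividing cells, had 4.45, 3.54 and 4.41 TPM, and Mki67, the proliferation marker Ki-67, had 1.72, 1.46 and 2.22 TPM. In bulk RNA of this kind, fewer cells of a type and less RNA per cell cannot be told apart.

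Library 2 stood apart in these genes. Of the mitotic kinesins 9 of 11 (81.8%) were lowest in library 2, against 32.3% of the protein-coding genes of 0.1 to 2 TPM and 26.3% of all protein-coding genes. Their summed TPM was 9.54, 7.93 and 10.6 in libraries 1, 2 and 3. Among the markers of dividing cells 11 of 12 were lowest in library 2, and their sums were 19.9, 16.5 and 20.5 TPM. The mitotic genes share their libraries and are not independent of each other.

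Most markers of the oligodendrocyte lineage were also lowest in library 2. Pdgfra, the receptor that marks oligodendrocyte precursors, had 11.5, 4.94 and 18.4 TPM, and Olig2, a transcription factor of that lineage, had 15.1, 10.1 and 22.7 TPM. The 8 markers of the oligodendrocyte lineage summed to 67.9, 50.5 and 84.7 TPM. Of these 5 of 8 were lowest in library 2, against 26.3% of all protein-coding genes, and Mog, a gene of mature myelin, stood at 0.0286 ± 0.0165 TPM. The 10 astrocyte markers, which summed to 1105, 1118 and 1454 TPM, and the 8 microglia markers, which summed to 1.96, 2.45 and 1.45 TPM with Tmem119 at 0 in all libraries, were not lowest in library 2 by these sums. The part of these cells in the levels of the mitotic kinesins was not tested. Without library 2 the transport minus mitotic difference was 3.97.

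The transport kinesins went the other way. None of the 15 was lowest in library 2, 11 (73.3%) were highest there, against 40.3% of all detected protein-coding genes, and 11 were lowest in library 3, against 40.8%. Their summed TPM was 654, 698 and 623. The 10 neuronal markers, the lowest of them Rbfox3 at 22.6 ± 0.0276 TPM and the highest Stmn2 at 687 ± 55.6 TPM, summed to 2674, 2761 and 2458 TPM in the same libraries. The part of the neuronal share in the transport kinesins was not tested.

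**Figure D3:**
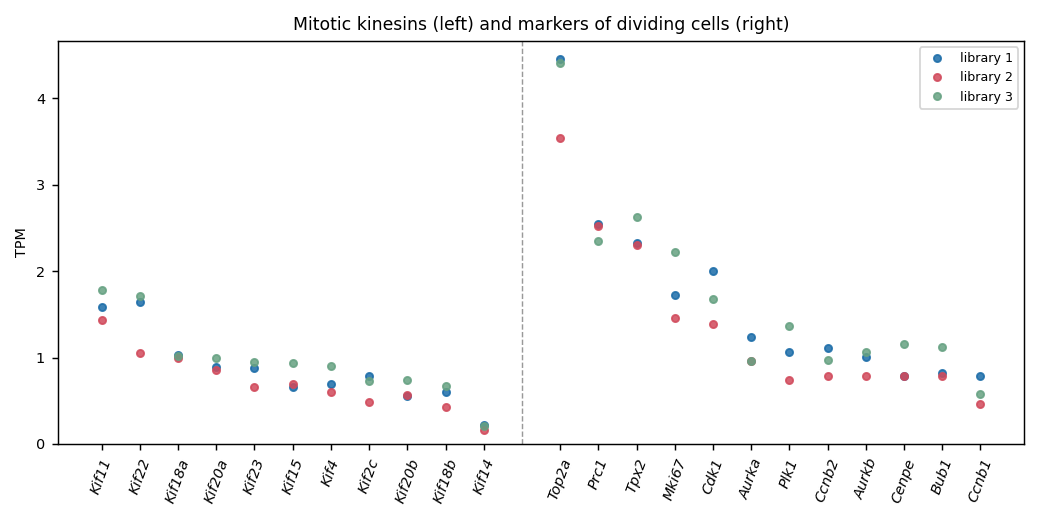
TPM of the 11 mitotic kinesins (left of the dashed line) and of 12 markers of dividing cells (right), each point 1 of the 3 libraries. Kif11 averages 1.60 TPM and Top2a 4.13 TPM; library 2 is the lowest point for 9 of the 11 kinesins and 11 of the 12 markers.

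The promoters of the classes were compared for 2 short motifs that textbooks tie to genes of the cell cycle, TTTGAA, the core of the cell cycle homology region, and CCAAT, the box bound by NF-Y. Windows held 300 bases, 250 before and 50 after a start of the gene, from RefSeq on GRCm38.p6. That start need not be the start of the row measured. Among the mitotic kinesins the windows of Kif2c and Kif4 lay inside the spans of their rows. A gene can have several windows, and 43 of 55 members matched 49 windows. Each motif was counted on both strands, so that TTCAAA and ATTGG also count, and a match of 1 motif can share at most 1 base with a match of the other. TTTGAA was present in 1 of 13 transport windows, in 9 of 10 mitotic windows and in 17.9% of all 32851 windows. CCAAT was present in 4 of 13 transport windows, in 6 of 10 mitotic windows and in 37.4% of all windows. The 13 transport windows came from 11 genes and are not independent: those of Kif1b overlap, and each holds CCAAT. The transport window with TTTGAA belonged to Kif1a and lay inside the gene. The mitotic window without TTTGAA was that of Kif18a. Mean GC content was 66.9% in transport windows, 57.8% in mitotic windows and 53.8% in all, and its part in these shares was not tested. The windows printed are those of the transport kinesin and the mitotic kinesin with the highest means and the mitotic kinesin whose libraries differed most among those detected, with matches to either motif in capitals.
Kif5c, chr2:49619036-49619335, plus strand: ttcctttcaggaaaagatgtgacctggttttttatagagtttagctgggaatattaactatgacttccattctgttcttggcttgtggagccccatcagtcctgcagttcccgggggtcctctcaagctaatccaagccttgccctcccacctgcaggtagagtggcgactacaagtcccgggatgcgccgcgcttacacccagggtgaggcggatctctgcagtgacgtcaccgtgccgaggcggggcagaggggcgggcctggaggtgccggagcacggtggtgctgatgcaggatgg
Kif11, chr19:37376132-37376431, plus strand: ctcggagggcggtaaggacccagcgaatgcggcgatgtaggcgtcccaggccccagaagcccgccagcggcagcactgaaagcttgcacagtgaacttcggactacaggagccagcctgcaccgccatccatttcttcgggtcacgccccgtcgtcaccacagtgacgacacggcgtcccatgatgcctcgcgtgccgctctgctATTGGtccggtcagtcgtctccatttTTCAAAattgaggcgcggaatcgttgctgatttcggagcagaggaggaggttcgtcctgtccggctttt
Kif22, chr7:127042371-127042670, minus strand: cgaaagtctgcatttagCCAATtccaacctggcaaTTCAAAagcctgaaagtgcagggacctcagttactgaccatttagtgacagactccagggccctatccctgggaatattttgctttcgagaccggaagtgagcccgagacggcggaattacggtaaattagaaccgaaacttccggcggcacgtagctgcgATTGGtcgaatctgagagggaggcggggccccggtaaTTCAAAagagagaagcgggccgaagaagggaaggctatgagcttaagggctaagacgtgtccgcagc
Kif5c held 0 matches of either motif, Kif11 held 1 of each, and Kif22 held 2 of each. A match says only that the letters are there.

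The 11 other kinesins were mostly below detection, with Kif2a the large exception. Kif2a, which takes microtubules apart at their ends and limits the growth of axon branches, had 31.9, 37.1 and 31.7 TPM. Its mitotic relative Kif2c, which does the same at kinetochores, had 0.789, 0.480 and 0.732 TPM, and Kif2a minus Kif2c was 4.38 ± 0.27 (log2). On the other strand 23.2% of the exonic bases of Kif2a are covered by Dimt1. Kif9, of motile cilia, was the other detected gene, at 1.55 ± 0.0735 TPM.

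Kif26b and Kif26a, the kinesins without the P-loop pattern, averaged 0.890 ± 0.158 and 0.647 ± 0.157 TPM. The ciliary genes Kif7, a regulator of Hedgehog signalling, and Kif27 averaged 0.509 ± 0.0554 and 0.346 ± 0.0277 TPM. Kif6, Kif24, Kif28 and Kif19a lay between 0.0852 and 0.275 TPM. Kif12 was listed at 0, 0 and 0.00973 TPM, from 0, 0 and 1 reads. Kif2b, Kif25, Dync2i1 and Dync2i2 were not analysed here.

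Kif1bp is not a motor but a protein that binds kinesin motor domains and keeps them off microtubules. Its longest protein-coding row, Kif1bp-202, had 17.4, 19.2 and 19.9 TPM. The row with the longest coding sequence, Kif1bp-201, stood higher, at 38.1, 41.0 and 38.6 TPM, and shares 48.2% of its exonic bases with Kif1bp-202.

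All 5 subunits of cytoplasmic dynein 1 taken by the symbol rule were detected, from 29.1 to 58.9 TPM. The rule leaves out the dynein light chains, whose 9 listed genes ran from 0.0766 to 111 TPM. How far reads of these 9 genes could be told apart was not tested. Dync1h1, the heavy chain that holds the motor, had 29.4, 32.2 and 25.8 TPM. The intermediate chains, which hold the complex to dynactin, were Dync1i2, found in most cells, with 58.3, 61.7 and 56.6 TPM, and Dync1i1, enriched in neurons, with 51.7, 51.9 and 44.7 TPM. Dync1i2 was higher in 3 of 3 libraries, by 0.25 ± 0.08 (log2), a mean ratio of 1.19 ± 0.0698.

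The light intermediate chains, which bind the adaptors of cargo, did not differ beyond their spread. Dync1li2 had 43.4, 47.3 and 39.6 TPM and Dync1li1 44.3, 47.9 and 47.2 TPM, and their ranges overlapped. All 5 dynein 1 genes were highest in library 2, against 40.3% of all detected protein-coding genes, and 4 of 5 were lowest in library 3, against 40.8%.

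Dynein 2 works only inside cilia, where it returns cargo from the tip. Dync1h1, at 29.1 ± 3.16 TPM, exceeded the heavy chain of dynein 2, Dync2h1, with 1.50, 1.75 and 1.61 TPM, by 3.52 ± 0.13 (log2), a ratio of 18.02 ± 1.76. The light intermediate chain of dynein 2, Dync2li1, had 15.1, 16.6 and 17.1 TPM, well above Dync2h1 in each library.

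All 6 dynactin genes taken by the symbol rule were detected, from 31.5 to 121 TPM. Dctn1, the large arm that touches dynein and the microtubule, had 55.9, 58.6 and 59.2 TPM. Dctn2, dynamitin, which joins the arm to the filament, was the highest of the class, with 128, 118 and 117 TPM. Dctn1 minus Dctn2 was -1.05 ± 0.11 (log2), and the libraries of the 2 genes did not overlap. With rows summed this difference was 2.31, since Dctn1 has 12 rows and Dctn2 1.

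Dctn3, another subunit of the shoulder, had 64.5, 58.6 and 55.1 TPM. The subunits of the pointed end were Dctn5 at 42.3 ± 2.62 TPM, Dctn6 at 38.9 ± 1.50 TPM and Dctn4 at 31.5 ± 1.44 TPM. The 3 lie within a range of 31.5 to 42.3 TPM, all below Dctn1, Dctn2 and Dctn3.

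Subunits that assemble together were also compared by their summed TPM, a comparison chosen after the values were seen. Heavy chains of kinesin-1 summed to 274 ± 15.6 TPM and light chains to 229 ± 5.05 TPM, a ratio of 1.22, 1.26 and 1.11 in libraries 1, 2 and 3. With the highest row of each gene the ratio was 0.667 ± 0.0209, so its side of 1 depended on the row. Kif3a over the sum of Kif3b and Kif3c was 0.892, 0.990 and 1.21, with a mean of 1.03 ± 0.17, and the libraries lay on both sides of 1. Intermediate chains stood at 3.73 ± 0.19 times Dync1h1 and light intermediate chains at 3.10 ± 0.22 times, and with the highest rows these ratios were 2.39 and 1.67. Dctn2 was 2.09 ± 0.17 times Dctn1, and 1.68 times with the highest rows. With rows summed, which counts shared reads once per row, kinesin-1 heavy over light chains was 0.463, Kif3a over its partners 9.38, intermediate chains over Dync1h1 3.39, light intermediate chains over Dync1h1 0.346 and Dctn2 over Dctn1 0.201, so these ratios depend on the row. These are ratios of RNA levels and carry nothing on the number of proteins in a complex.

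**Figure D4:**
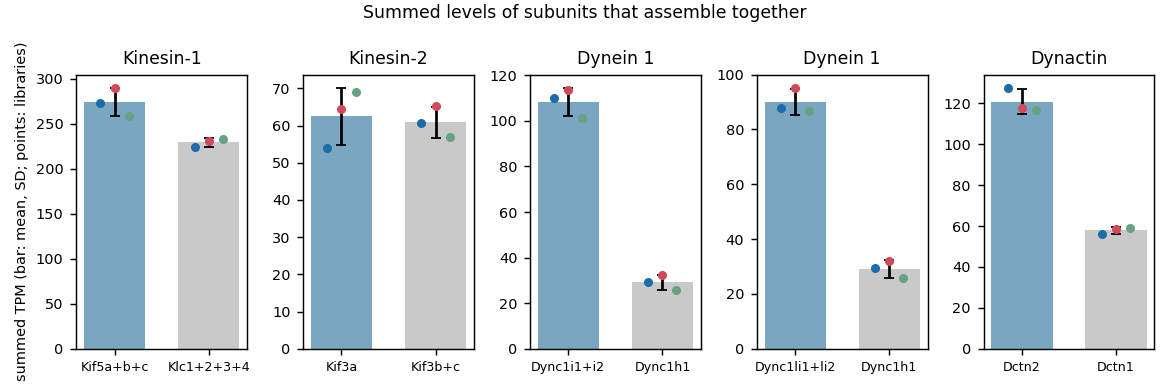
Summed TPM of subunits that assemble together, in 5 panels with their own axes from 0; bars are means, error bars SD, and points the libraries (blue 1, red 2, green 3). Heavy and light chains of kinesin-1 lie at 274 and 229 TPM and Kif3a beside Kif3b plus Kif3c at 62.5 and 60.9 TPM, while intermediate chains and light intermediate chains lie above Dync1h1 and Dctn2 above Dctn1.

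Partners outside the symbol rule were taken from lists of the same pathway. Of 9 dynein light chain genes 6 (66.7%) were detected, a share near the 61.5% of all protein-coding genes. At 10 TPM or more stood 4 (44.4%), against 26.4%, led by Dynlrb1 at 111 ± 10.4 TPM and Dynll2 at 101 ± 12.4 TPM. Of 6 genes of the dynactin filament and its caps all were detected, against 61.5% of all protein-coding genes. Actr1a, the actin-related protein of the filament, averaged 69.0 ± 7.12 TPM, Capza2 117 ± 6.21 TPM and Capzb 82.9 ± 5.02 TPM, while Capza1, the other alpha subunit of the cap, was at 1.05 ± 0.121 TPM.

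The dynein regulators Pafah1b1, which is LIS1, Ndel1 and Nde1 averaged 129 ± 16.8, 34.1 ± 2.12 and 5.23 ± 0.425 TPM. Among 19 adaptors that link motors to cargo 15 (78.9%) were detected, against 61.5% of all protein-coding genes. At 10 TPM or more stood 10 (52.6%), against 26.4%. The highest adaptor was the kinesin-1 scaffold Mapk8ip1 at 70.7 ± 3.61 TPM, and the mitochondrial adaptors Trak1 and Trak2 averaged 20.61 ± 1.003 and 21.5 ± 2.57 TPM. Bicdl2 was listed at 0 in all libraries. Of the 6 kinesin genes whose symbols fall outside the rule 3 (50%) were detected, against 61.5% of all protein-coding genes. These were Kifap3 (above), Kifc2, a minus-end kinesin, at 68.8 ± 1.99 TPM, and Kifc3 at 7.62 ± 0.157 TPM. The mitotic kinesins Cenpe and Kifc1 in that list were at 0.914 ± 0.213 and 0.647 ± 0.102 TPM.

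Levels of the members varied little between libraries. Over the detected members the median coefficient of variation was 6.36%, and over all detected protein-coding genes it was 7.88%. The members had a median span of 42.0 kb against 21.2 kb for all protein-coding genes, and 11 of 55 spanned over 100 kb, against 2373 of 18121. This did not hold in every class: the median was 17.2 kb in dynactin and 12.7 kb in the kinesin light chains. Kif26b was the longest at 410 kb and Kif12 the shortest at 6.50 kb. Span and level had a Spearman rho of -0.0017 over the 55 members, -0.26 over the 15 transport kinesins and 0.19 over all 18121 protein-coding genes, a description of genes in shared libraries.

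The choice of transcript row changed some levels. In 8 of 55 members the highest row stood at 1.5 times the longest row or more. Klc1 had the highest such level, at 434 ± 3.30 TPM in Klc1-205, a row of only 227 bases, against 200.2 ± 4.94 TPM in the longest row Klc1-201. Its coding rows of over 2 kb lay between: Klc1-204 averaged 221 TPM, Klc1-202 261 TPM and Klc1-203 262 TPM. Dync1h1 reached 54.0 TPM in its highest row, Kif2a 65.2 TPM, Dctn3 96.2 TPM, Dctn6 62.2 TPM and Kif1bp 48.9 TPM. Of the mitotic kinesins Kif4 reached 1.24 TPM and Kif14 0.506 TPM. All 16 pairs kept their direction with the highest row.

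**Figure D5:**
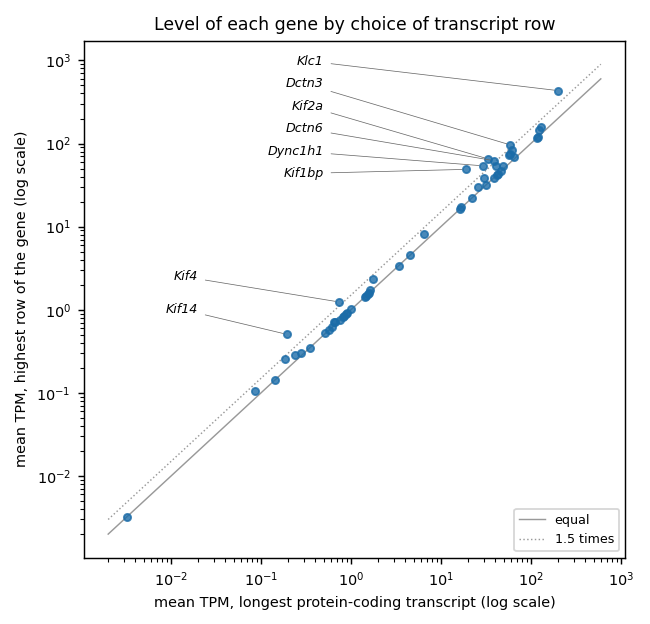
Mean TPM of the highest row of each member against that of its longest protein-coding transcript, both on log scales; the solid line marks equal values and the dotted line a ratio of 1.5. The 8 named genes lie on or above the dotted line, Klc1 at 434 against 200.2 TPM.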

How the data were processed

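The authors deposited TPM values per transcript for 3 libraries, per the file headers, made from a strand-specific poly-A kit, per the labels' protocols. Per the submitters' processing notes, the genome build was mm10 and the tools included Bowtie, TopHat, HTSeq and Trimmomatic, without version numbers. The sources used here do not give the strand setting or how reads with several matches were treated.

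Of 84660 rows, 82970 were matched by identifier to genes of GENCODE M21, 47 lay elsewhere and 1643 did not match. The match gave 27480 genes, 18121 protein-coding. Each gene takes the row of its longest protein-coding transcript. Named genes are all members, the genes of the fixed lists and the fixed pairs. Members and lists were chosen with earlier results of these data known. Log values are log2(TPM + 1), and pair differences were taken within libraries and tested by exact sign-flip permutation. TPM times transcript length gave whole numbers of reads, within 0.01 of a read, in 99.8% of 74441 rows with unchanged ends, and these reads were used to give depth and the reads behind low values, and in no test of a difference between genes. Between library pairs the chi-square per degree of freedom was 10.8 to 16.8 and 0 rows above 0 were identical, so all libraries were kept. Read recovery was tested on simulated data. Alternatives were the highest row, the sum of rows, each library left out, a pseudocount of 0.1, detection at 0.5 and 5 TPM, another scaling, detected members only and the median over libraries. Tools were Python 3.11.15, pandas 2.3.3, numpy 2.4.6, scipy 1.17.1 and matplotlib 3.10.9.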

Additional observations from a re-analysis of the deposited data

How the results depend on the processing

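No paired analysis was possible because all 3 libraries belong to 1 group, so no samples of different groups share a replicate number; gene pairs were compared within each library. With each library left out in turn, all 16 pair differences kept their sign, the detected counts stayed at 36 members, 14 transport and 3 mitotic kinesins, the transport median was 4.87 to 4.98, the mitotic median 0.75 to 0.85 and their difference 3.97 to 4.19 (log2). With the highest row the transport median was 5.32 and the difference 4.36, all 16 pairs kept their direction, and 20 of 55 levels moved beyond their SD. With rows summed the transport median was 6.44, the mitotic median 1.38, the difference 5.12 and the mitotic genes detected 7, and 2 pairs reversed: Kif5a minus Kif5b was -0.55 and Dctn1 minus Dctn2 was 2.31. A sum counts shared reads once per row, and Kif5a and Dctn2 have 1 row each. With a pseudocount of 0.1 the mitotic median was -0.22 and the difference 5.07. Scaled so that the rows of nuclear protein-coding genes sum to 1000000, the transport median was 7.16, the mitotic median 2.21, the difference 4.91 and the mitotic genes detected 10. The share of all protein-coding genes detected is not given for summed rows or for this scaling. The counts of 7 and 10 mitotic genes therefore have no background beside them. Among members at 1 TPM or more the transport median was 5.13, the mitotic median 1.30 and the difference 3.84. Detection at 0.5 TPM gave 10 mitotic genes and detection at 5 TPM gave 0, with 66.4% and 40.5% of all protein-coding genes detected. The median over libraries left all 55 levels within their SD. With 3 libraries no pair can reach p below 0.25.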
